A study of Mus musculus with 8 samples.

Results

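With added interleukin-2 (IL-2), single elements at Bcl2, Socs2, Il2rb and Rapgef4 ranked stronger in both libraries of control cells than in either library without it, and a peak at the Il2 promoter was called only without it, but no region passed a test across all regions. The comparison is between 2 ATAC-seq libraries of control mouse CD4 T cells cultured with TGF-β and IL-2 and 2 libraries of control cells cultured with TGF-β only. These are 4 of the 8 libraries of the series, chosen by their titles. The other 4 come from cells labelled Tet1/3 cDKO, a conditional double knockout of Tet1 and Tet3, under the same 2 conditions, and serve here only to show whether the same regions differed in cells that share no library with the control comparison. Naive CD4 T cells were sorted from spleen and stimulated with antibodies to CD3 (0.25 µg/mL) and CD28 (1 µg/mL). All groups received TGF-β at 20 ng/mL, and the IL-2 groups also received 100 U of IL-2. Cells were harvested at 48 h, and 90000 cells per library were tagmented. ATAC-seq uses a transposase that inserts adapters into open DNA, so a peak marks accessible chromatin. The titles call these cells control and 1 label field calls them WT, while the field for genotype holds the culture condition. The design text calls the replicates biological. The labels do not name the animals, their age or strain, or the Cre line of the knockout. The p-values therefore reflect library-to-library spread, which may be technical.

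IL-2 is a growth factor of activated T cells. It binds a receptor made of the α chain (Il2ra), the β chain (Il2rb) and the common γ chain (Il2rg), which activates the kinases Jak1 and Jak3 and then the transcription factors Stat5a and Stat5b. STAT5 binds DNA at a palindrome written TTCNNNGAA and induces its own inhibitors (Cish and the Socs genes), survival genes such as Bcl2, and the α chain. IL-2 also represses its own gene, and with TGF-β it promotes Foxp3, the transcription factor that defines regulatory T cells. T cells stimulated through CD3 and CD28 make IL-2 themselves, so cultures without added IL-2 need not lack the cytokine.

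Promoters of 2 genes frame the comparison: Il2 itself, whose promoter held a peak only without added IL-2, and Cish, a STAT5 target that carries the motif. Both are RefSeq windows on build GRCm38.p6, from 250 bases before to 50 bases after the start site, written 5′ to 3′ along the gene. In the Il2 window (chr3:37125905-37126204, minus strand) capitals mark the core of the NFAT motif, GGAAA on either strand. In the Cish window (chr9:107296409-107296708, plus strand) capitals mark TTCNNNGAA.

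Il2: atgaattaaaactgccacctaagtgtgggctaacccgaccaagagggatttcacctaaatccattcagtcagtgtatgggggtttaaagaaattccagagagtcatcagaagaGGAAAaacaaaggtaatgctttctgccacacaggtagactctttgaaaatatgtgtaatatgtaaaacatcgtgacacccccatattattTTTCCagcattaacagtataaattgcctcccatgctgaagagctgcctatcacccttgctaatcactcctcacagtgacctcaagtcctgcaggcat

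Cish: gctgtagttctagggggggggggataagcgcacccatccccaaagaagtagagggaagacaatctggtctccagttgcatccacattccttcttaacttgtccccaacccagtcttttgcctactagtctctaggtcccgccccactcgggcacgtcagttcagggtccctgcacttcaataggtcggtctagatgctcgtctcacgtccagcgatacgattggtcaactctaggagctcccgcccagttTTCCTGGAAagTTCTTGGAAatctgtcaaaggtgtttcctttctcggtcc

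The Il2 window holds the NFAT core starting at positions -137 and -47, with the start site as position 0, and no match to TTCNNNGAA. NFAT proteins carry the T cell receptor signal to this promoter. The peak region at chr3:37125756-37126075 covers the gene's start and the nearer of these cores. It ranked 38215 and 53339 in the TGF-β-only libraries, where rank 1 is the strongest peak of a list. Neither IL-2 library called a peak there. For IL-2 replicate 1 this held in the full deposited list, while that of IL-2 replicate 2 is no longer than the equal-number list. No cDKO list of equal number held the region. The full cDKO lists held it only without IL-2, at ranks 81973 and 73203. The Cish window holds TTCNNNGAA at positions 0 and 11, each overlapping an NFAT core. Its region (chr9:107295389-107297012) ranked 21102 and 15974 without IL-2 and 19703 and 10481 with it, so the groups overlapped. The motif TTCNNNGAA is in 8.3% of all 32851 promoter windows and GGAAA in 61.3%. A match is a description of the letters only.

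The deposited lists differed in length. The TGF-β-only libraries had 145979 and 92488 peaks and the IL-2 libraries 113317 and 65811, and read depth is not given in the lists. Each list was therefore reduced to its 65811 peaks of highest -log10 p, the number in IL-2 replicate 2, whose weakest kept peak had a -log10 p of 3.25 against 7.97 to 13.49 in the other 3. Peaks that overlapped by at least 1 bp were merged into 175276 regions over all 8 lists. Similarity between libraries did not follow IL-2: the Jaccard index of listed regions was 0.756 between the TGF-β-only libraries, 0.713 between the IL-2 libraries, and 0.68 to 0.765 between groups. Markers of the labelled cell type were checked first. Peaks lay inside 15 of 16 T cell identity genes in each library, and 9 or 10 of the 16 had a peak at a listed gene start, although the start windows of Cd4 and Cd28 had none. Gene starts of the other lineages held few peaks: 1 or 2 of 12 CD8 and NK cell genes (Cd8a and Ncr1 had none), 0 to 2 of 10 B cell genes (Pax5 had none), 1 or 2 of 12 myeloid genes and 0 of 8 erythroid genes. Peaks inside genes of these lineages were more common, in 7 or 8 of 12 CD8 and NK cell, 6 or 7 of 10 B cell, 6 to 8 of 12 myeloid and 3 to 5 of 8 erythroid genes. The lists hold no measure of the deleted exons, so they do not check the cDKO labels.

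Of 67723 regions listed in at least 2 of the 4 control libraries, 2292 (3.38%) were listed in both IL-2 libraries and neither TGF-β-only library, and 2407 (3.55%) in the reverse pattern. These are called higher and lower with IL-2 below. They made up 21.9% and 23.0% of the 10449 regions that exactly 2 libraries listed. By replicate number, 1933 regions were held by both libraries numbered 1 and neither numbered 2, and 1760 the other way. The balance between directions depended on list length: the full deposited lists gave 404 higher and 6193 lower regions. Leaving out any 1 library raised both counts, to 4219 to 8427 higher and 4228 to 6943 lower. Called regions were weak peaks: the poorer of their 2 ranks had a median of 57331 for higher and 58658 for lower regions. At rank 32905 or better in both libraries stood 48 higher and 13 lower regions. A permutation test of a single region in 2 against 2 libraries cannot give a p under 0.333. A limma fit over all 67723 regions, with unlisted regions set past the last rank, called 0 regions (smallest adjusted p 0.553), and 5781 had an unadjusted p under 0.05. In bulk libraries, a different share of cells with an open region and a different openness per cell cannot be told apart.

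**Figure D1:**
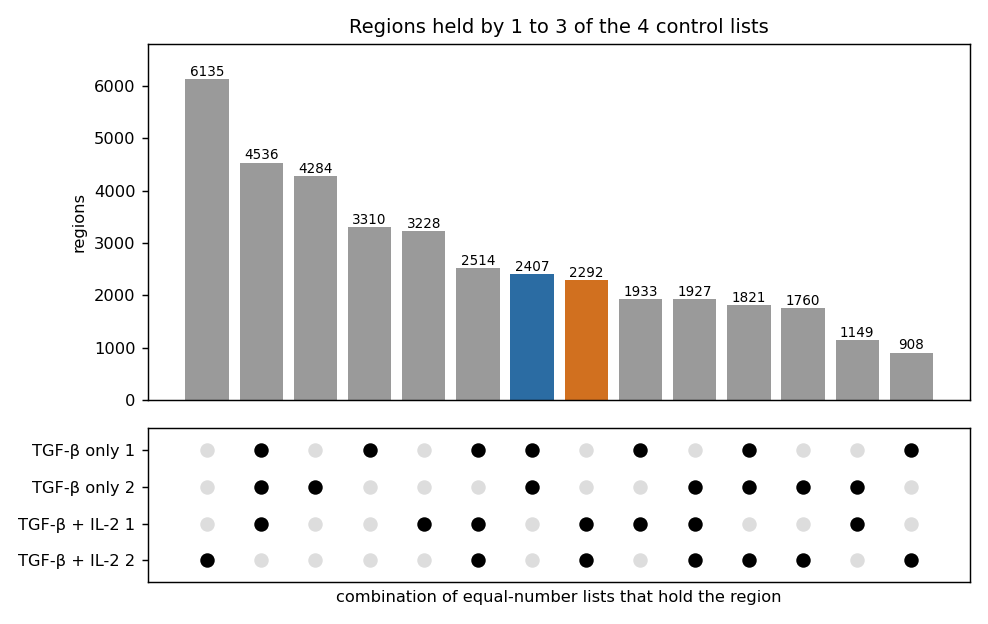
Numbers of regions (vertical axis) for each combination of control equal-number lists that hold them, shown by the black dots, for regions in 1 to 3 lists. The blue bar is the 2407 regions held only without IL-2 and the orange bar the 2292 held only with it, both smaller than the 6135 regions held by IL-2 replicate 2 alone.

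Gene starts were unevenly shared between the directions. Higher regions lay at a gene start in 104 cases (4.54%) and lower regions in 39 (1.62%), against 3.69% of regions in exactly 2 lists. Among genes of the lists, promoter windows overlapped by higher regions included those of Lef1 and Zeb2, transcription factors of naive and of effector T cells, and Capg, an actin-capping protein gene listed here among regulatory T cell genes. Lower regions overlapped those of Il2 and Cd244a, which encodes a receptor of NK cells. The higher Capg region reached only the upstream end of its window. Of the 3 Capg regions that all 4 control libraries listed, 2 ranked poorer in both IL-2 libraries and none better. TTCNNNGAA stood in 13 of the 116 windows touched by higher regions (11.2%) and in 5 of the 39 touched by lower regions (12.8%). It stood in 6.62% of the windows touched by regions that all 4 libraries listed. By rank, the share was 6.43% of 2599 windows at regions better in both IL-2 libraries and 7.44% of 1371 at regions poorer in both.

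Few called regions were also missing from the full deposited lists of the opposite group. This held for 43 higher regions (1.88%) and 261 lower regions (10.8%), in a setting where the deposited TGF-β-only lists are longer. The full list of IL-2 replicate 2 is its equal-number list, so for lower regions only IL-2 replicate 1 added a check. Of the 10 such higher regions with the best ranks, the first lay inside Cd96, a receptor gene of T and NK cells (chr16:46077200-46077567, ranks 41776 and 45852.5 with IL-2). Others lay inside Rfx7, Slc22a23, Man1a, Pde11a, Strbp and Sema6d, at the start of Slc16a9, 60.8 kb from Usp46, and on chromosome 16 with no gene within 100 kb. In the equal-number lists of cDKO cells, the Pde11a region was the one of these 10 that stood higher in both IL-2 libraries. In the full cDKO lists, the regions in Cd96, Rfx7, Slc22a23 and Strbp were also called in both IL-2 libraries and in neither without IL-2. Of the 10 lower regions, the best ranked was found 7.03 kb from Dnmt3b, whose product methylates DNA (chr2:153694576-153694937, ranks 37225.5 and 38833 without IL-2). In cDKO cells it was listed in all 4 libraries and ranked better with IL-2 (41912 and 34522) than without (43352.5 and 54022.5). Further lower regions lay inside Tox, a transcription factor gene of exhausted and follicular T cells (36054 and 40821.5), and near H2-Q10, Dscc1, Twsg1, Rsad2 and Adgre5, or inside Dennd2a. The remaining pair had no gene within 100 kb. The region near Twsg1, a secreted regulator of BMP signals, was weaker with IL-2 in cDKO cells too (25034 and 23504 against 55919 and 55152), as were the one near Adgre5 and both regions without a gene.

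Ranks were compared where all 4 control libraries listed a region, which was the case for 46476 regions. The log2 rank shift is the mean -log2 rank with IL-2 minus that without, and a positive shift means stronger with IL-2. limma with Benjamini-Hochberg adjustment called 0 regions stronger (0.0%) and 0 weaker (0.0%) at an adjusted p of 0.05. The smallest adjusted p was 0.15. At an unadjusted p under 0.05 there were 1830 stronger (3.94%) and 1990 weaker (4.28%) regions. Ranks of the groups did not overlap in 8349 regions that were stronger with IL-2 (18.0%) and 8903 that were weaker (19.2%). The median absolute shift, a difference between means of 2 libraries, was 0.313. Between single replicate libraries the median absolute difference was 0.383 for TGF-β only and 0.405 for IL-2, which is on another scale. Ranking by fold in place of -log10 p gave 5 stronger and 2 weaker regions. Without IL-2 replicate 1, limma called 123 and 28, without IL-2 replicate 2 it called 9 and 0, without TGF-β-only replicate 1 it called 6 and 0, and without TGF-β-only replicate 2 it called 0 and 21.

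The regions with the smallest p in each direction are described as values, since none passed. The largest positive shift of these was inside Rapgef4, a gene for a cAMP-activated exchange factor of the GTPase Rap1 (chr2:72082728-72083479). It ranked 12142.5 and 19785 without IL-2 and 2968 and 1101 with it, a shift of 3.10 (SE 0.62, limma adjusted p = 0.15). A region 29.1 kb from Nfkb1, which encodes an NF-κB subunit (chr3:135720750-135721445), went from 26074 and 38639 to 6869.5 and 6369 (shift 2.26, SE 0.44). All IL-2 values at these regions were far from the values without it. A region inside Xpo4, a nuclear transport receptor gene (chr14:57635614-57636182), ranked 34665 and 45984 without and 9848 and 7238.5 with IL-2. Regions inside Ube2e2, a ubiquitin-conjugating enzyme gene, and Adamts6, a secreted protease gene, had shifts of 2.17 and 2.28. In the other direction, a region inside Nfat5, the transcription factor of the osmotic stress response (chr8:107324116-107324454), ranked 2574 and 3883.5 without IL-2 and 19050.5 and 20912.5 with it (shift -2.66, SE 0.52, limma adjusted p = 0.15). The other weaker regions lay 28.7 kb from Smtn (shift -2.51), 56.3 kb from Mturn (-2.06), inside Srgap1 (-1.51) and 40.1 kb from Stmnd1 (-2.21).

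**Figure D2:**
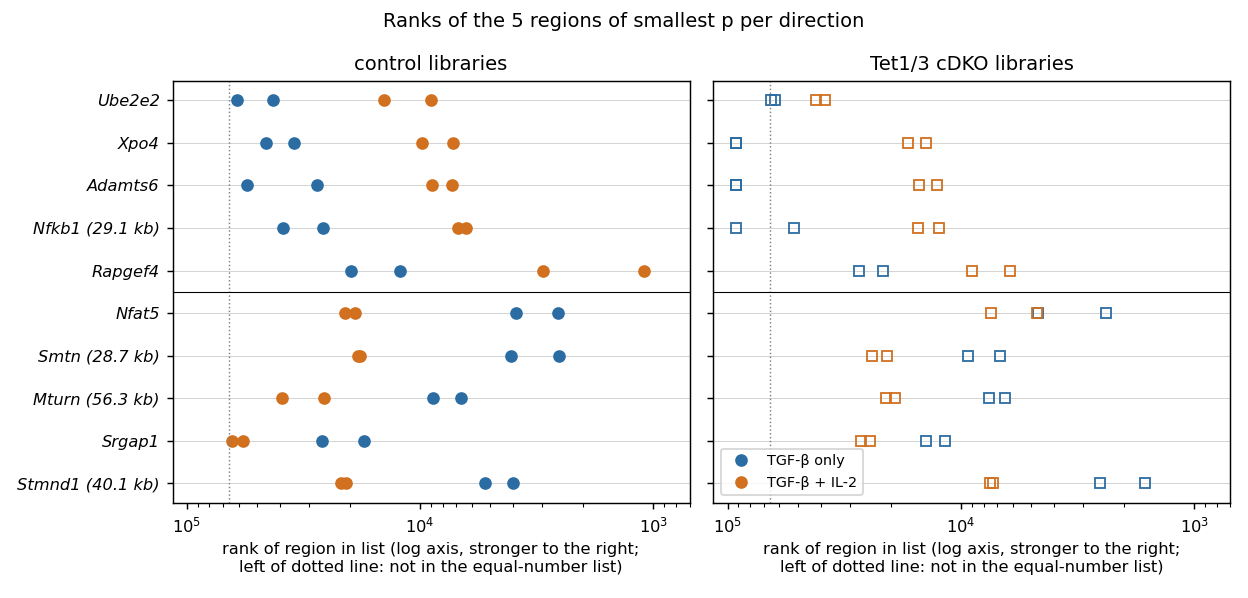
Ranks (log axis, stronger to the right) of the 5 regions with the smallest p in each direction, above and below the line, in control libraries (filled) and cDKO libraries (open), without IL-2 in blue and with IL-2 in orange. Symbols left of the dotted line are regions outside the equal-number list. In all 10 rows the colours separate in the control libraries, where the rows were chosen, and in the same order in the cDKO libraries.

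The cDKO libraries did not enter that choice, and they ordered all 10 regions the same way. The Xpo4 region was in neither cDKO list without IL-2 and ranked 16831 and 14127.5 with it. At the Nfat5 region the cDKO ranks were close (4676 and 2390 without, 4714 and 7440 with IL-2). For the next counts, a cDKO library that did not list a region was placed past the last rank. In control cells, 1830 regions had a positive shift and an unadjusted p under 0.05. Of these, 1119 (61.1%) had cDKO ranks that were all better with IL-2 and 73 (3.99%) ranks that were all poorer. Over all 46476 regions, cDKO ranks were all better with IL-2 in 21.1% and all poorer in 20.2%. Of the 1990 with a negative shift, 953 (47.9%) were poorer with IL-2 in cDKO cells and 138 (6.93%) better. All 8 libraries listed 1184 of the 1830 regions and 1874 of the 1990. Among these, 982 (82.9%) and 1439 (76.8%) had a cDKO shift of the same sign. For all positive and negative control shifts the shares were 59.7% and 58.8%. Across the 40694 regions listed in all 8 libraries, the control and cDKO shifts had a Pearson correlation of 0.311, a description over regions that share libraries within each genotype. The test of the difference between the 2 shifts, a limma interaction term, called 0 of the 40694 regions (0.0%), with 1725 (4.24%) at an unadjusted p under 0.05. Within cDKO cells, the same limma fit called 483 stronger (0.978%) and 355 weaker (0.719%) of 49399 regions. The difference test above passed nowhere, which does not show that the genotypes respond alike.

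**Figure D3:**
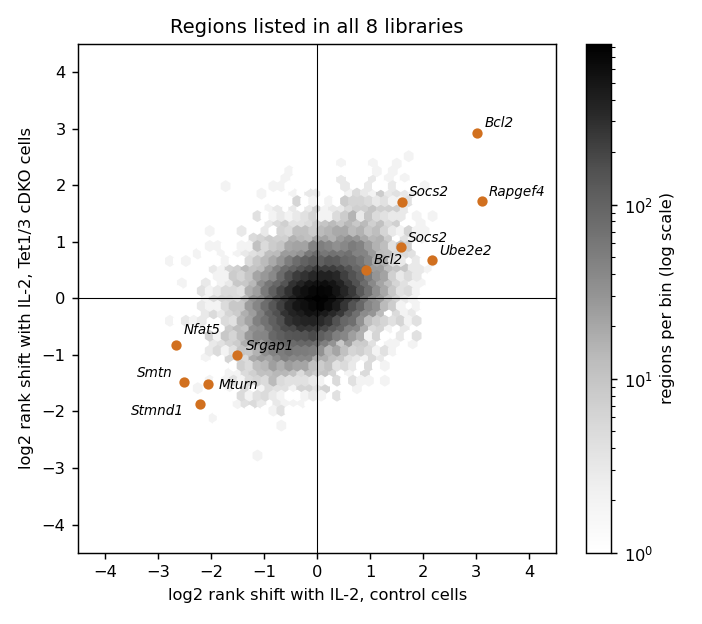
Log2 rank shift with IL-2 in control cells (horizontal axis) and in cDKO cells (vertical axis) for the 40694 regions in all 8 libraries, as a density (darker bins hold more regions, log scale). Orange points are the named regions with values in all 8 libraries and the Bcl2 and Socs2 regions with an unadjusted p under 0.05. The Bcl2 point lies at 3.02 and 2.93.

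Receptor genes differed in direction, and no region of theirs passed the test. Mean shifts were positive for Il2rb, Il4ra, Il7r, Il2ra and Il21r and negative for Il9r and Il2rg. The counts per gene below are to be set beside the shares over all 46476 regions. These were 18.0% better and 19.2% poorer in both IL-2 libraries. Il2rb had 4 regions in all control lists, 3 of them better in both IL-2 libraries, with a mean shift of 0.68. An intragenic region (chr15:78502117-78503149) ranked 42363.5 and 26555.5 without IL-2 and 17120 and 14543 with it (shift 1.09, SE 0.39, limma adjusted p = 0.41), and cDKO ranks separated the same way (26294 and 34270 against 16396.5 and 14354). The strongest Il2rb region (chr15:78494420-78495718) ranked 3064 and 3653 without and 2515 and 1074.5 with IL-2. In the other direction, a region 3.19 kb from Il2rb (chr15:78514554-78515061) was listed only without IL-2, at 51419 and 49290.5. The full list of IL-2 replicate 1 held it at rank 76939. Il7r, the α chain of the IL-7 receptor, had 6 regions in all control lists, 4 better in both IL-2 libraries and none poorer. Of these, one 0.725 kb from the gene (chr15:9505214-9505654) ranked 38431.5 and 59737 without and 17449 and 20187 with IL-2 (shift 1.35, SE 0.36). Il9r, the IL-9 receptor α chain gene, had a mean shift of -0.42 over 8 regions, with none better and 3 poorer in both IL-2 libraries, and one of -0.48 in cDKO cells. Its region 61.4 kb away (chr11:32125648-32126698) ranked 34932.5 and 24244 without and 52975 and 54384 with IL-2 (shift -0.88, SE 0.31). The single Il2rg region had a shift of -0.29.

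Il2ra had 11 regions in all control lists, of which 2 were better in both IL-2 libraries and none poorer, with a mean shift of 0.27. Its gene-start region overlapped between groups (34443 and 22127 without, 30529 and 14382 with IL-2). A region 1.33 kb from the gene (chr2:11641332-11641586) was listed only with IL-2, at 25923 and 34388. The TGF-β-only libraries held it at ranks 68241 and 81684.5 of their full lists, below the shared length. It was also higher with IL-2 in cDKO cells (58947 and 51428, unlisted without). Regions 14.4 kb from the gene and inside it (chr2:11628237-11628630 and chr2:11657724-11658003) were listed only without IL-2, at 63149.5 and 58670.5 and at 65346 and 49579, and both were weaker or unlisted with IL-2 in cDKO cells. A further region lay 22.3 kb from Il2ra, though it is nearer to Rbm17 (chr2:11620245-11620669). It ranked 54332 and 65448 without IL-2 and 24119 and 14406 with it (shift 1.68, SE 0.35, limma adjusted p = 0.15). Of the equal-number cDKO lists only those with IL-2 held it. The cDKO libraries without IL-2 held it at ranks 91481 and 94605 of their full lists. That region was singled out after its values were seen. Elements around Il2ra thus included some listed only with and some listed only without IL-2.

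Around Il2 the other regions differed little on average, although 1 of the 5 in all lists was poorer in both IL-2 libraries and none was better. The strongest, 2.48 kb from the gene (chr3:37128160-37128717), ranked 4945 and 9797.5 without IL-2 and 5864 and 8755 with it. The mean shift of its 5 regions in all lists was -0.06. Over the 11 genes of the cytokine and receptor list, 1 of 83 regions was listed only with IL-2 and 5 only without. Of the 61 regions in all lists, 13 were better and 6 poorer in both IL-2 libraries (21.3% and 9.84%, against 18.0% and 19.2% of all regions), with a median shift of 0.012 against -0.001 over all 46476 regions.

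Among the feedback genes Socs2 stood out in size. Socs2 is a STAT5 target that limits cytokine signalling. Its broad region at the gene start (chr10:95415262-95417640) ranked 22143 and 19909 without IL-2 and 9671 and 5079 with it (shift 1.58, SE 0.48, limma adjusted p = 0.283). A region 11.8 kb away (chr10:95371745-95372366) went from 21577.5 and 24835 to 4780 and 12454 (shift 1.59, SE 0.48), and another, 21.5 kb away, from 59515.5 and 62727.5 to 33071.5 and 34918.5 (shift 0.85, SE 0.28). In each of the 3 the groups did not overlap, and in the remaining region, 23.5 kb away, they overlapped (shift -0.02). The mean shift of the 4 regions was 1.00 (SE 0.16). In a fit of gene means over 5536 genes, chosen after seeing the data and limited to genes with at least 3 such regions, Socs2 had the smallest p, with a limma adjusted p of 0.313, and 0 genes passed (0.0%). In cDKO cells the first of these regions ranked 26654 and 28469 without IL-2 and 13251 and 16257 with it.

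Cish, which encodes an inhibitor of IL-2 receptor signalling, had a mean shift of 0.34 over 6 regions, 2 of them better in both IL-2 libraries and none poorer. The clearest lay 5.15 kb from the gene (chr9:107307459-107308411), at 41440 and 35466 without and 30695 and 15540 with IL-2, and at 64354 and 52932 against 21863 and 29649 in cDKO cells. Socs1 had a mean shift of 0.17 over 4 regions, none of them separating the groups. Socs3 had a mean shift of -0.23 over 5 regions, and a region 13.6 kb away (chr11:117952144-117952758) ranked 7978 and 10406.5 without and 17156 and 27381.5 with IL-2 (shift -1.25, SE 0.45). So the 3 Socs genes did not share a direction. In the kinases and factors, an intragenic region of Jak1 (chr4:101175210-101175638) ranked 22999.5 and 17588.5 without IL-2 and 54055.5 and 57768 with it (shift -1.47, SE 0.33, limma adjusted p = 0.169). An intragenic region of Stat3, which transmits IL-6 and IL-21 signals, went the other way, from 29803.5 and 34592.5 to 11458 and 11598 (shift 1.48, SE 0.40). Over the 18 genes of the JAK, STAT and feedback list, 18 of 101 regions were better and 21 poorer in both IL-2 libraries (17.8% and 20.8%), close to the shares over all regions.

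Among the survival and growth genes, the element with the largest shift lay in Bcl2. Its product blocks apoptosis. An intragenic region 107.2 kb from the start of the gene (chr1:106606900-106607379) ranked 7173 and 9659.5 without IL-2 and 548 and 1922 with it. Both IL-2 values were far better than either value without it, a shift of 3.02 (SE 0.72, limma adjusted p = 0.174). In cDKO cells it ranked 15815 and 9796 without and 2307 and 1157 with IL-2, a shift of 2.93. Of the 21 Bcl2 regions in all control lists, 11 were better and 2 poorer in both IL-2 libraries, against 18.0% and 19.2% of all regions. Of the 21, 16 had a positive shift, and the mean was 0.40. In the fit of gene means, Bcl2 did not pass (limma adjusted p = 0.622). The gene-start region overlapped between groups, at 28552 and 19732 without and 21348 and 10822 with IL-2.

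**Figure D4:**
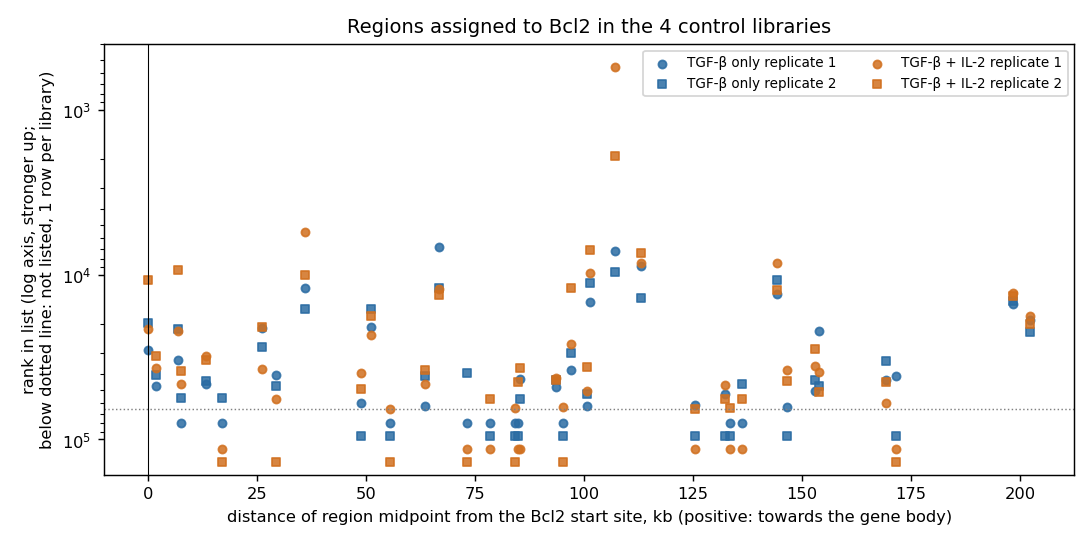
Ranks (log axis, stronger up) of all regions assigned to Bcl2 against distance from its start site in kb, in the 4 control libraries, with blue for TGF-β only and orange for TGF-β with IL-2. Points below the dotted line are regions outside that library's equal-number list. The 2 highest points are the IL-2 libraries at the region 107.2 kb into the gene.

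Some other members of the 20-gene survival and growth list showed the same order at single elements, and others the opposite order. An intragenic region of Cdk6, a G1 cell cycle kinase (chr5:3460445-3461591), ranked 7790.5 and 11162.5 without and 3454 and 2717 with IL-2 (shift 1.61, SE 0.58), and a region inside Ccnd3, a D-type cyclin gene, had a shift of 1.31 (SE 0.40). A region 28.4 kb from Xbp1, a factor of the unfolded protein response (chr11:5492063-5492498), ranked 59376.5 and 58454 without and 29970 and 21258 with IL-2 (shift 1.22, SE 0.31). By contrast, a region 46.1 kb from Tnfrsf8 (chr4:145361042-145361498) ranked 5284 and 11942.5 without and 14647.5 and 19470 with IL-2 (shift -1.09, SE 0.49). Of the 16 Tnfrsf8 regions in all lists, 3 were better and 3 poorer in both IL-2 libraries. Listing and ranks differed at Bcl2l11. Regions 59.3 kb from and inside this gene, which encodes the pro-apoptotic protein BIM, were listed only with IL-2, the first at 29274.5 and 30687.5. Of its 7 regions in all lists, however, none was better and 4 were poorer in both IL-2 libraries, with a mean shift of -0.20 (-0.11 in cDKO cells). Regions near Il24, Nfil3, Myc, Mcl1 and Furin were also listed only with IL-2, and regions inside Bcl2l1 and Cdk6 only without. The counts were 7 only with and 2 only without among 194 regions (3.61% and 1.03%, against 3.38% and 3.55% of all). Of the 145 regions in all lists, 41 were better and 22 poorer in both IL-2 libraries (28.3% and 15.2%, against 18.0% and 19.2% of all). These counts include 11 better and 2 poorer of 21 regions at Bcl2, and 7 and 1 of 18 at Cdk6. The excess of better regions thus rested largely on these 2 genes, not evenly on the list. The median shift of the list was 0.165. In cDKO cells the median for this list was 0.118 over 149 regions. Myc had a mean shift of 0.23 over 7 regions and Pim1, a kinase gene induced by STAT5, 0.22 over 6.

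Gene-start regions had higher shifts than other regions, which bears on the medians of gene lists. Over all 9629 gene-start regions the median shift was 0.167, and over the other 36847 it was -0.041. The median rank of gene-start regions was 10984 and 9714.5 in the TGF-β-only libraries and 10158 and 8856.5 in the IL-2 libraries, so the libraries overlapped between groups and the best value was that of the library with the shortest deposited list. Its part in the list medians was measured by leaving gene-start regions out. The survival and growth list then had a median of 0.163 over 124 regions, with 30.6% better and 15.3% poorer in both IL-2 libraries, against 17.3% and 21.2% of all regions away from gene starts. Bcl2 and Cdk6 were still among the genes counted. For glucose and amino acid metabolism the median was 0.173 over all 79 regions and 0.049 over the 64 away from gene starts. It was -0.021 in cDKO cells. Regions of that list with the smallest p included one inside Hk2, a hexokinase gene, at 12179.5 and 20807 without and 4906 and 5878.5 with IL-2 (shift 1.57, SE 0.51).

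**Figure D5:**
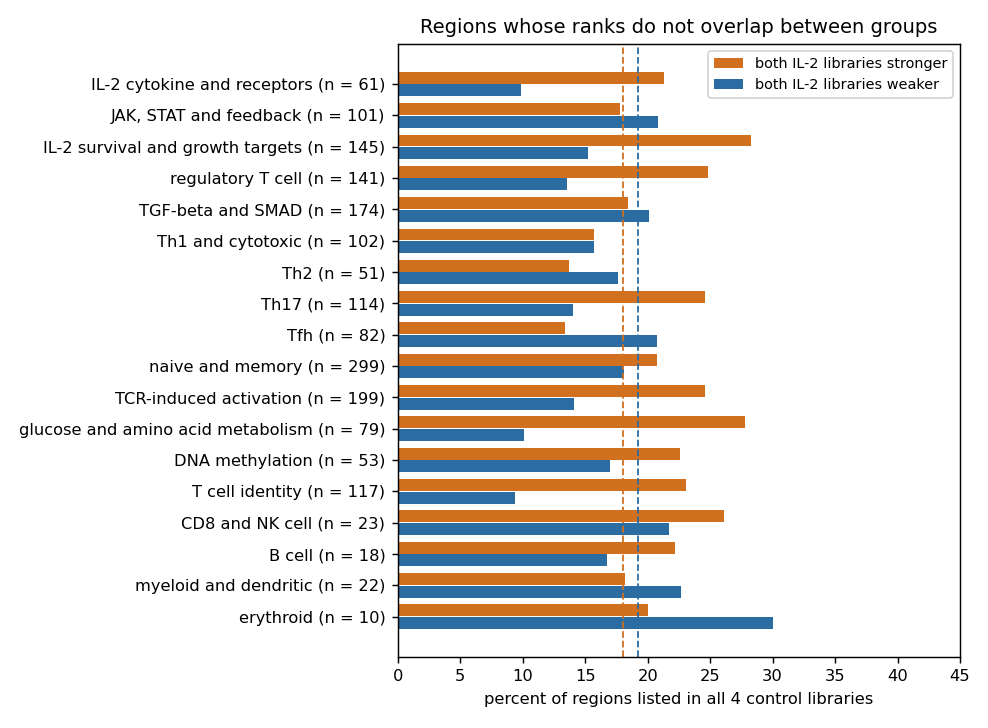
For each gene list, the percent of its regions listed in all 4 control libraries (n) whose ranks were better (orange) or poorer (blue) in both IL-2 libraries, with dashed lines at the values over all regions, 18.0% and 19.2%. The survival and growth list stands at 28.3% and 15.2%. It includes Bcl2, with 11 better and 2 poorer of 21 regions, and Cdk6, with 7 and 1 of 18.

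Foxp3 itself held few and weak peaks in control cells under either condition. Its gene-start region (chrX:7578832-7579840) was in the equal-number list of 1 control library, IL-2 replicate 2, at rank 50929. An intragenic region (chrX:7586226-7586968) ranked 57716 and 47592 without IL-2, 63511 in IL-2 replicate 1, and was not called in IL-2 replicate 2. No Foxp3 region was listed in all 4, so no shift was fitted. Among the other regulatory T cell genes, Ctla4, an inhibitory receptor, had 16 regions in all lists, 6 better and 2 poorer in both IL-2 libraries, with a mean shift of 0.12. Its region 20.1 kb away (chr1:60888689-60889164) ranked 47437.5 and 48153 without and 30259 and 24259.5 with IL-2, while regions 1.36 kb and 63.1 kb away were listed only without IL-2. A region 22.7 kb from Icos, a costimulatory receptor gene, went from 38764 and 41602 to 19968 and 16224 (shift 1.16, SE 0.36), and another 16.5 kb away was listed only without IL-2. A region inside Entpd1, which encodes the ectoenzyme CD39, ranked 768.5 and 3707 without IL-2 and 6045 and 9539.5 with it (shift -2.17, SE 0.71). In cDKO cells that region overlapped between conditions (shift 0.14). Over the 22 genes, 4 of 192 regions were listed only with and 12 only without IL-2 (2.08% and 6.25%, against 3.38% and 3.55% of all), whereas 35 of 141 regions in all lists were better and 19 poorer (24.8% and 13.5%). The listing and the ranks of this list therefore pointed in different directions. For TGF-β and SMAD genes the counts were 11 and 8 of 249 (4.42% and 3.21%) by listing, and 32 and 35 of 174 (18.4% and 20.1%) by rank, near the shares over all regions.

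Helper-cell genes showed elements of both directions at the same gene. At Ifng, a region 35.1 kb away (chr10:118480692-118481217) ranked 29220 and 27416 without and 12608 and 12041 with IL-2, and another 23.3 kb away (chr10:118468777-118469517) 13829 and 9151.5 without and 19802.5 and 27687.5 with it. The region 64.4 kb from Maf, a Th2 and follicular factor gene (chr8:115770870-115771762), was among the strongest peaks without IL-2, at 870 and 644, and ranked 2653 and 6788 with it (shift -2.50, SE 0.79). Near Il9 a region ranked 462.5 and 420 without and 1023 and 2958 with IL-2 (shift -1.98, SE 0.95), and 407 and 105.5 against 1711 and 473 in cDKO cells. A region 39.4 kb from Pdcd1, which encodes the inhibitory receptor PD-1 (chr1:94091755-94092243), ranked 3514 and 8387 without and 19543.5 and 23792.5 with IL-2 (shift -1.99, SE 0.50). One near Il17a, 20.1 kb away, had a shift of -1.51 in control and 0.31 in cDKO cells, and intragenic regions of Il6ra and Rora had shifts of 1.14 and 1.00. Against 18.0% better and 19.2% poorer over all regions, the counts were 16 and 16 of 102 for Th1 genes (15.7% each) and 7 and 9 of 51 for Th2 genes (13.7% and 17.6%). They were 28 and 16 of 114 for Th17 genes (24.6% and 14.0%) and 11 and 17 of 82 for follicular helper genes (13.4% and 20.7%). Among the last, Bcl6 had a mean shift of 0.10 over 7 regions. Prdm1, the gene of its antagonist Blimp-1, had one of -0.10 over 9, with intragenic regions at 47122.5 and 37854.5 and at 55121.5 and 52165 listed only without IL-2.

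Genes of naive and memory T cells had the most regions of any list. Of 426, 21 were listed only with and 13 only without IL-2 (4.93% and 3.05%, against 3.38% and 3.55% of all). Of 299 in all lists, 62 were better and 54 poorer (20.7% and 18.1%), near the 18.0% and 19.2% of all regions, with a median shift of 0.021. An intragenic region of Ets1 (chr9:32722809-32723457) ranked 33941 and 35528 without and 13410 and 8955 with IL-2, and 41434.5 and 42729 against 13884 and 12824 in cDKO cells. An intragenic region of Foxp1 went from 15224 and 18329 to 6084 and 3135. In the other direction, a region 61.0 kb from S1pr1, the receptor for exit from lymph nodes, ranked 8383 and 10437.5 without and 21523.5 and 38044 with IL-2. Tcf7 had a mean shift of 0.11 over 10 regions. Genes induced through the T cell receptor had 49 better and 28 poorer of 199 regions (24.6% and 14.1%), led by the Nfkb1 region above. Among DNA methylation genes, a region 26.7 kb from Tet2 (chr3:133436670-133437365) ranked 13815 and 20922.5 without and 4259 and 4616 with IL-2 (shift 1.94, SE 0.51). Dnmt3b had a mean shift of 0.23 over 3 regions.

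T cell identity genes had 27 better and 11 poorer of 117 regions (23.1% and 9.4%, against 18.0% and 19.2% of all). By listing, 9 of 165 were held only with and 2 only without IL-2 (5.45% and 1.21%, against 3.38% and 3.55%). A region 2.92 kb from Cd2, an adhesion receptor gene (chr3:101272578-101273402), ranked 24394 and 45356 without and 8578 and 7221 with IL-2 (shift 2.08, SE 0.44, limma adjusted p = 0.15). Lists of other lineages were small: better and poorer counts were 6 and 5 of 23 for CD8 and NK cells, 4 and 3 of 18 for B cells, 4 and 5 of 22 for myeloid cells and 2 and 3 of 10 for erythroid cells. The elements of these lists named next shifted too, by less than the 2.08 of the Cd2 region. A region inside Spi1, the gene of the myeloid factor PU.1 (chr2:91112118-91113115), ranked 27627.5 and 59345 without and 16300.5 and 8810.5 with IL-2 (shift 1.76, SE 0.43, limma adjusted p = 0.174). Regions 11.5 kb from Cebpa, a myeloid factor gene, and 1.48 kb from Gata1, an erythroid factor gene, had shifts of 1.70 (SE 0.45) and 1.38 (SE 0.35). In the equal-number lists of cDKO cells all 3 were held by both IL-2 libraries and by neither library without IL-2. The full cDKO lists without IL-2 held all 3, at ranks from 74792.5 to 99489.5. The fractions of other cells in the cultures were not measured, and their part in the results was not tested.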

How the data were processed

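Peak lists of 8 ATAC-seq libraries were used, 2 per group by title. Each deposited peak has a fold over background (a ratio), a -log10 p and a -log10 q, the authors' own values. Per the submitters' processing notes, build GRCm38 (mm10) was used and the tools named include the aligner Bowtie2 2.4.1 and the peak caller MACS2 2.2.7.1. No source here states read shifting, duplicate handling or calling settings. One list per library was deposited.

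Lists were reduced to 65811 peaks by -log10 p, and peaks of all 8 lists were merged at 1 bp of overlap. A region took the best rank of its peaks, with ties averaged. Ranks do not measure amounts and are relative within a list. limma 3.58.1 (R 4.3.3; trended eBayes) fitted -log2 rank over the regions in all 4 control lists, with Benjamini-Hochberg adjustment. On simulated data this fit missed small shifts and recovered only some large ones, so a count of 0 does not show that ranks were alike. The interaction was fitted over all 8 libraries. Genes came from RefSeq (GRCm38.p6): the protein-coding body holding the midpoint, else the nearest within 100 kb. All 280 genes of 18 lists matched. Exons, introns and UTRs were not analysed here. A gene-start region overlaps a RefSeq promoter window. Motifs were searched on both strands.

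Named regions were, per direction, up to 10 called by listing and absent from the other group's deposited lists, by the smallest worst rank; the 5 of smallest limma p, since none passed; and up to 4 genes per list, with a fixed set around IL-2 signalling always described. The comparison and the lists were chosen with earlier results of these data known. Alternatives covered list length, ranking by fold, scale, overlap, unlisted regions, merging, trend, gene assignment, a replicate block, and leaving out each library.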

Additional observations from a re-analysis of the deposited data

Results flagged for a closer look

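In 3 regions of the always-described genes that all 8 libraries listed, both control libraries ranked poorer with IL-2 and both cDKO libraries ranked better. At chr1:60859940-60860921, 48.6 kb from Ctla4, ranks were 34761 and 31040.5 without and 41362.5 and 42338.5 with IL-2 in control cells, and 53982.5 and 51145 against 34139.5 and 41795.5 in cDKO cells. The control shift minus the cDKO shift was -0.83. Inside Bcl2 (chr1:106647274-106647731) control ranks were 6830 and 12068 without and 12311.5 and 13373 with IL-2, cDKO ranks 12645.5 and 16515.5 against 10615 and 10094.5, and the difference was -0.98. Inside Dnmt3b (chr2:153668838-153669096) they were 41197.5 and 36788.5 against 44318 and 54131.5 in control cells and 65099 and 49119 against 29471.5 and 33600.5 in cDKO cells, a difference of -1.18. The limma interaction test gave each of the 3 an adjusted p of 0.999, so none passed.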

How the results depend on the processing

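Listing counts depended on list length and on every library. With full deposited lists, 404 regions were listed only with IL-2 and 6193 only without, and with lists of the first 32905 peaks there were 1274 and 1253. Leaving out 1 library gave 4219 to 8427 only with IL-2 and 4228 to 6943 only without, where the remaining lone library must carry its side. Cutting by fold, the stricter overlap and another merging kept both counts within 1.5 times.

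The limma counts of 0 and 0 became 5 stronger and 2 weaker when ranks were taken by fold. Without IL-2 replicate 1 they were 123 and 28, without IL-2 replicate 2 they were 9 and 0, without TGF-β-only replicate 1 6 and 0, and without TGF-β-only replicate 2 0 and 21. These ranges, 0 to 123 and 0 to 28, assume that a lone library varies like the other group. Half-length lists, normal scores, unlisted regions set past the last rank, another merging and no trend gave 0 and 0. With the replicate number as a replicate block, 664 were stronger and 654 weaker. The groups share only a number, deviations of same-numbered libraries correlated at 0.363 over 2 pairs, and the block fit rests on 1 residual degree of freedom per region. The interaction stayed at 0 under 11 alternatives. Of the alternatives for named shifts, 71 kept their side of the threshold and 23 moved past it, none with a change of sign. For named listings, 58 stayed and 22 moved, and 29 of 72 list counts moved by over 1.5 times, while 18 of 18 list medians stayed within their spread. Read depth is not known, so it sets no limit here. The cause of these changes was not tested.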

Other observations

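Genes outside the lists were scanned in the fit of gene means, which called 0 of 5536 genes. After Socs2 the smallest p belonged to Adamts3 (mean shift 1.28, SE 0.22, limma adjusted p = 0.313, 3 regions). Negative mean shifts with small p were found for Scn4a (-0.78), Itgad, an integrin gene (-0.74), and Stmnd1 (-0.90), each with a limma adjusted p of 0.516. Fcgr3, an Fc receptor gene of the CD8 and NK cell list, was chosen after its values were seen. It had a positive shift in all 7 of its regions (mean 0.64, SE 0.19, limma adjusted p = 0.528). Of the 7, 4 were better in both IL-2 libraries, against 18.0% of all regions. The rest of that list did not share this direction. Mean shifts were positive for Cd160 (0.59) and Klra4 (0.54). They were negative for Cd8a (-0.61), Ncr1 (-0.60), Klrc1 (-0.39), Cd8b1 (-0.31), Cd244a (-0.27) and Klrb1c (-0.18).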
